A study of Mus musculus with 6 samples.

Results

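The genes described here encode subunits of receptors for the cytokines that reach natural killer (NK) cells from other immune cells: Il12rb1 and Il12rb2 (IL-12), Il18r1 and Il18rap (IL-18), Il21r (IL-21), Il7r (IL-7), Il10ra and Il10rb (IL-10), Ifngr1 (interferon gamma) and Il6ra (IL-6). They were chosen by name, and all 10 were found by symbol among the 37991 Ensembl genes of the count files. RNA was sequenced from NK cells of mouse spleen that carried CD27 and CD11b, surface proteins found together on NK cells that are partway through maturation. All mice were of the C57BL6 strain background, and the 6 libraries were 3 of wildtype and 3 of Rroid-deficient genotype, labelled Rroid KO in the titles. The Rroid transcript is a lncRNA, a long RNA without a protein product, made at a cis-regulatory element near Id2. The labels do not give how the deficiency was made, the age of the mice or whether each library came from its own mouse, so the p-values rest on the spread among these 6 libraries, which may be technical.

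These receptors carry no kinase of their own. The receptors for IL-12, IL-21, IL-7, IL-10, IL-6 and interferon gamma bind JAK kinases, which phosphorylate STAT transcription factors. The IL-18 receptor belongs to the IL-1 receptor family and signals through the adaptor MyD88 to NF-kappaB. In NK cells IL-12 and IL-18 act together to induce interferon gamma, IL-21 promotes maturation and cytotoxicity, and IL-10 acts through STAT3.

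Reads assigned to genes ranged from 5823626 to 9216430 per library. Id2, the gene beside the Rroid element, had 468, 338 and 342 CPM (counts per 1000000 assigned reads, with library sizes adjusted by TMM) in wildtype libraries 1 to 3 and 38.9, 66.7 and 81.2 in deficient libraries 1 to 3 (log2 fold change -2.62, SE 0.30, adjusted p = 0.0308 in edgeR). This matched the genotype labels. All 11 NK cell markers examined were tested, and their summed level was 10900 to 13200 CPM in wildtype and 8900 to 9160 CPM in deficient libraries. Gzma, which encodes granzyme A, gave the largest part of this gap, with 4501 ± 866 and 2560 ± 217 CPM (SD, n = 3), while the libraries of 8 of the 11 markers overlapped. In 3 of the 11 every deficient library was lower than every wildtype library, against 6.33% of all tested genes. None of the 11 passed in edgeR. DESeq2 on the filtered genes called 1, Gzma (adjusted p = 0.00812), against 0.569% of all genes with an adjusted p. Without a filter on low counts its DESeq2 adjusted p was 0.0543. Wildtype 1 and deficient 1 had no count for 5.63% and 5.57% of the tested genes, against 0.230% to 2.43% in the other libraries. CPM of members are given below for libraries 1 to 3 of each genotype in that order, and log2 fold changes are deficient against wildtype.

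No member passed the test of genotype over all genes (edgeR's quasi-likelihood test, Benjamini-Hochberg adjusted p under 0.05), where 0.0171% of 11724 tested genes did. Of the 9 members tested, 2 had an unadjusted p under 0.05, Il21r and Il12rb2, against 5.29% of all tested genes. DESeq2 called 1 member, Il21r, both on the filtered genes and without a filter on low counts, while limma-voom called 0. DESeq2 called 0.569% of genes with an adjusted p on the filtered set and 0.715% without the filter. In 1 of the 9 tested members, Il21r, every deficient library lay above every wildtype library, against 6.03% of all tested genes in that direction, and in 0 members did every deficient library lie below, against 6.33%. The median log2 fold change of the 9 was 0.014, beside 0.024 over all tested genes.

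**Figure D1:**
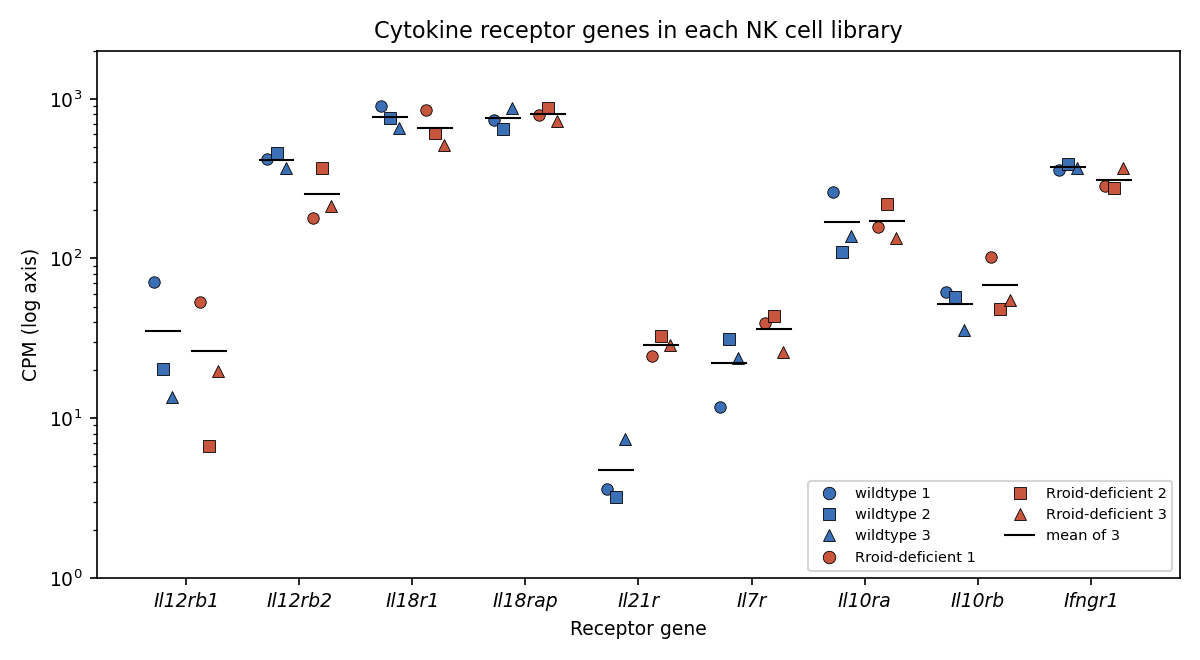
CPM on a log axis of 9 receptor genes in each of the 6 libraries, with wildtype in blue, Rroid-deficient in red, and a bar at the mean of 3; Il6ra, at 0 counts in every library, cannot be drawn. Il21r alone has all deficient libraries (24.7 to 32.6 CPM) above all wildtype libraries (3.22 to 7.39 CPM), and Il12rb1 spreads widest within each genotype.

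The promoters of the 2 members with the smallest p are shown because the protein encoded by Id2 binds E proteins and keeps them from DNA, and E proteins recognise the E-box, CANNTG. Each is the window of 250 bases before to 50 bases after the annotated start, 5′ to 3′ along the gene, from RefSeq on build GRCm38.p6. Capitals mark each match to CANNTG, which reads the same on both strands. Il21r lies on chromosome 7, plus strand, with its window at chr7:125603179-125603478. Il12rb2 lies on chromosome 6, minus strand, with its window at chr6:67376139-67376438.
Il21r: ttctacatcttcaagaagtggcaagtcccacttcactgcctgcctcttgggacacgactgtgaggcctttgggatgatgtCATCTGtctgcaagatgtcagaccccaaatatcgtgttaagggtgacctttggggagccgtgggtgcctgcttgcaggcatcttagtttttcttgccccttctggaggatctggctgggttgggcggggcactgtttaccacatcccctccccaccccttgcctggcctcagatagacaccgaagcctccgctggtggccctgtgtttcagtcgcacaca
Il12rb2: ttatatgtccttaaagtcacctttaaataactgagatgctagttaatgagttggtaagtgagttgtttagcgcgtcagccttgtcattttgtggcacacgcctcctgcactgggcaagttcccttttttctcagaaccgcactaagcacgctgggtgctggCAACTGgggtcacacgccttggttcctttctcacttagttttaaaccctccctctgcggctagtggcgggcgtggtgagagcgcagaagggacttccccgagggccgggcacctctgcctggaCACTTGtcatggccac
The Il21r window held 1 E-box and the Il12rb2 window 2. RefSeq windows were matched for 7 of the 10 members. Ifngr1 had 0 matches, Il18rap 1, Il7r 3 and Il6ra 4, and the 3 windows of Il18r1, one for each annotated start, had 1 or 2. An E-box was present in 72.3% of all 32851 windows of this length, with a median of 1 match, so its presence does not set these promoters apart. The palindrome TTCNNNGAA, the core recognised by STAT dimers, was found in the windows of Il12rb2, Il7r and one Il18r1 start, and in 8.30% of all windows. A match describes the letters only and is not evidence of binding.

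Il21r, the receptor chain that binds IL-21 and pairs with the common gamma chain, had the largest difference among the members. It had 3.60, 3.22 and 7.39 CPM in wildtype and 24.7, 32.6 and 28.6 CPM in deficient libraries. The underlying counts were 24, 30 and 47 against 171, 200 and 207, and the highest wildtype library lay well below the lowest deficient one. Exact 95% Poisson intervals, which cover counting error only, reached up to 9.83 CPM in wildtype 3 and down to 21.1 CPM in deficient 1. The means were 4.74 ± 2.31 and 28.6 ± 3.99 CPM (SD, n = 3), a fold change of 6.04 with a 95% interval of 2.22 to 16.5. On the log2 scale this is 2.60 (SE 0.65), and the adjusted p was 0.647 in edgeR, 0.0158 in DESeq2 on the filtered genes and 0.000622 in DESeq2 without a filter. The call thus depended on the tool. With any 1 library left out the edgeR log2 fold change stayed between 2.38 and 3.06 (adjusted p 0.591 to 0.999), and with wildtype 1 and deficient 1 both left out it was 2.53.

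T and B lymphocytes also express Il21r, so their markers are given beside it. Of 12 T cell markers 6 were tested and none passed in edgeR. DESeq2 on the filtered genes called 2, the CD3 chain genes Cd3g and Cd3d, against 0.569% of all genes with an adjusted p. Cd3g was 10.2-fold and Cd3d 7.24-fold higher in deficient libraries by the edgeR estimate. Trbc2, a T cell receptor constant region gene, was 2.16-fold higher and was called by DESeq2 without a filter (adjusted p = 0.0416). For these 3 of the 6 tested markers every deficient library lay above every wildtype library, against 6.03% of all tested genes. The summed level of the list was 213 to 312 CPM in wildtype and 377 to 489 CPM in deficient libraries, without overlap. Trbc1 gave the largest single part of this sum in every library. The libraries of the other tested markers overlapped between genotypes. On average in wildtype and deficient libraries, Trbc1 had 139 and 162 CPM, Lat 41.0 and 36.3, and Trac 2.26 and 6.98. The markers that were not tested were absent or rare. Cd8a and Cd6 were at 0 in all libraries, Cd3e had no count in any deficient library, and Cd4 and Cd8b1 were seen only in wildtype 1. Whether the marker transcripts came from T cells or from the NK cells was not tested. The part of T cell transcripts in the Il21r difference was not tested either. Of 7 B cell markers 2 were tested, and the summed level was 5.66 to 15.6 CPM in wildtype and 3.92 to 14.9 CPM in deficient libraries, with Pax5 at 0 throughout. These ranges overlapped, and the part of B cell transcripts was not tested. In bulk RNA, fewer cells of a type and less RNA per cell cannot be told apart.

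The neighbours of each member in RefSeq gene order (GRCm38.p6, protein-coding genes, the nearest 2 on each side) were examined after the values of Il21r had been seen. Il4ra, the IL-4 receptor chain gene, is the nearest gene to Il21r on the side of lower coordinates. It had 14.8, 29.0 and 16.4 CPM in wildtype and 81.3, 56.0 and 83.5 CPM in deficient libraries, again without overlap. Its log2 fold change was 1.87 (SE 0.43), with an adjusted p of 0.572 in edgeR and 0.00787 in DESeq2 on the filtered genes. The next gene beyond Il4ra, Nsmce1, had 31.1 ± 10.9 and 19.9 ± 12.9 CPM (SD, n = 3). On the other side, Gtf3c1 had 59.6 ± 13.0 and 54.9 ± 10.9 CPM. Il21r prompted this search, so only Il4ra is a further observation. The libraries of Il4ra lay apart with the deficient ones higher, against 6.03% of all tested genes in that direction. Those of Nsmce1 and Gtf3c1, which flank the pair of Il21r and Il4ra, overlapped. The difference between the pair and its flanks was not tested. Among the neighbours of other members, Serbp1 beside Il12rb2 also lay apart in that direction. Arrdc2 beside Il12rb1 and Ube2q1 near Il6ra lay apart in the other, against 6.33% of all tested genes. The libraries of the remaining tested neighbours outside the members overlapped: Pik3r2, Mast3, Gadd45a, D430042O09Rik, BC049352, Ifnar1, Ifnar2, Tnfaip3, Atp8b2 and Hax1.

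Il7r, the IL-7 receptor chain that marks innate lymphoid cells, naive and memory T cells and part of the NK cells, had 11.8, 31.3 and 23.8 CPM in wildtype and 39.2, 43.9 and 26.1 CPM in deficient libraries. Deficient 3 lay within the wildtype range, and wildtype 1 was the lowest of all. Its log2 fold change was 0.71 (95% interval -0.45 to 1.86, edgeR adjusted p = 0.925). The interval spans a 3.64-fold increase as well as a decrease, so a difference of several fold could not be told from the spread between libraries. Of 7 ILC2 and ILC3 markers, Il17a, Il22 and Ccr6 were at 0 in every library, and the summed level, nearly all from Gata3, was 50.2 to 71.9 CPM in wildtype and 55.0 to 73.5 CPM in deficient libraries. Per kilobase of exon, Il7r stood 2.29 to 6.91 times above Il21r in wildtype libraries and 0.651 to 1.13 times in deficient libraries, so Il7r was the more abundant in every wildtype library and in deficient 1, and Il21r in deficient 2 and 3.

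Il12rb2 is the IL-12 receptor chain that recruits STAT4, and its expression marks cells able to respond to IL-12. It had 419, 457 and 367 CPM in wildtype and 180, 371 and 213 CPM in deficient libraries. Deficient 1 and 3 lay far below every wildtype library, while deficient 2 lay just above wildtype 3. The means were 414 ± 45.3 and 255 ± 102 CPM (SD, n = 3). This gave a log2 fold change of -0.70 (SE 0.27, 95% interval -1.30 to -0.10, unadjusted p = 0.0258, edgeR adjusted p = 0.914; DESeq2 adjusted p = 0.431 on the filtered genes). Scaled by total assigned reads without normalization factors, the libraries did not overlap: the lowest wildtype library had 387 CPM and the highest deficient library 370 CPM. With any 1 library left out the log2 fold change lay between -0.51, without deficient 1, and -1.08, without deficient 2, and it was -0.50 with wildtype 1 and deficient 1 both left out.

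The count of Il12rb2 carries an annotation limit. In GENCODE M21 (GRCm38) 1519 of its exonic bases, 40.0% of 3794, lie under exons of Serbp1, an mRNA-binding protein gene on the opposite strand. The amplification kit does not mark strand, so reads of both genes in that stretch cannot be told apart, and no source used here says how they were counted. Serbp1 had 502, 588 and 596 CPM in wildtype and 717, 609 and 601 CPM in deficient libraries, the direction opposite to Il12rb2. Its log2 fold change was 0.19 (SE 0.16, edgeR adjusted p = 0.926).

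Il12rb1, the chain that the IL-12 and IL-23 receptors share, varied more within each genotype than between them. It had 71.6, 20.3 and 13.5 CPM in wildtype and 53.0, 6.69 and 19.8 CPM in deficient libraries. Wildtype 1 and deficient 1, the libraries with most tested genes at 0, were the highest of their genotypes. The coefficient of variation was 90.4% in wildtype and 90.2% in deficient libraries, against 10.9% and 40.0% for Il12rb2. Exact 95% Poisson intervals of 65.3 to 78.3 CPM in wildtype 1 and 10.8 to 16.7 CPM in wildtype 3 show that this spread exceeded counting error. The estimate of -0.41 on the log2 scale had a 95% interval of -2.21 to 1.40, and its sign depended on single libraries: it was 0.64 without wildtype 1 and -1.41 without deficient 1. Of its immediate neighbours, Mast3 had 181 ± 19.7 and 171 ± 34.3 CPM (SD, n = 3). Arrdc2, on the other side, had 4.67 ± 0.942 and 1.99 ± 0.686 CPM, without overlap (log2 fold change -1.22, edgeR adjusted p = 0.925).

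Il18r1, the chain that binds IL-18, and Il18rap, the accessory chain that completes the signalling receptor, lie next to each other on chromosome 1 and had the highest CPM of the members, a value that also grows with gene length. Il18r1 had 902, 758 and 661 CPM in wildtype and 852, 611 and 517 CPM in deficient libraries. Il18rap had 740, 650.5 and 881 CPM in wildtype and 793, 878 and 723 CPM in deficient libraries. The libraries of both genes overlapped between genotypes. The log2 fold change was -0.23 (95% interval -0.70 to 0.24) for Il18r1 and 0.08 (95% interval -0.30 to 0.45) for Il18rap, with edgeR adjusted p of 0.936 and 0.965. For Il18rap the interval excludes a rise above 1.37-fold and a fall below 0.814-fold, the narrowest limits among the members. The next gene of this receptor cluster, Il1rl1, which encodes the IL-33 receptor, had at most 0.966 CPM in any library.

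Per kilobase of exon, Il18r1 had the highest mean in both genotypes (161 ± 25.1 CPM per kilobase in wildtype and 137 ± 35.9 in deficient libraries, SD, n = 3). Its range overlapped with others: Il18rap was higher in deficient 2 (130 against 127) and Ifngr1 in deficient 3 (130 against 107). In wildtype libraries Ifngr1 (131 ± 4.98), Il18rap (112 ± 17.2) and Il12rb2 (109 ± 11.9) followed, and the ranges of Il18rap overlapped with those of both others. Il10ra (48.4 ± 22.6) lay below these 4 in every library, then came Il10rb (13.6 ± 3.65) and Il12rb1 (8.56 ± 7.74), whose ranges overlapped. Il7r (4.78 ± 2.1) overlapped with Il12rb1, and Il21r (1.42 ± 0.694) was the lowest of the 9 detected members, with all wildtype libraries below those of Il7r. In deficient libraries Il21r stood at 8.61 ± 1.20 CPM per kilobase, beside Il7r at 7.81 ± 1.97 and Il12rb1 at 6.46 ± 5.82, with overlapping ranges. The lengths come from GENCODE M21 (GRCm38), while the counts were made on an older build, so these levels are approximate.

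The subunits of a receptor were not equally abundant. Il12rb2 exceeded Il12rb1 per kilobase in every library, by 6.33, 24.4 and 29.3 times in wildtype and 3.68, 60.0 and 11.7 times in deficient libraries. The ratio of Il18rap to Il18r1 was 0.585, 0.612 and 0.951 in wildtype and 0.664, 1.03 and 0.997 in deficient libraries, so both chains stayed within a factor of 1.71 of each other. The ratio of Il10ra to Il10rb lay between 1.68 and 4.97 in the 6 libraries. None of these 3 ratios separated the genotypes.

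**Figure D2:**
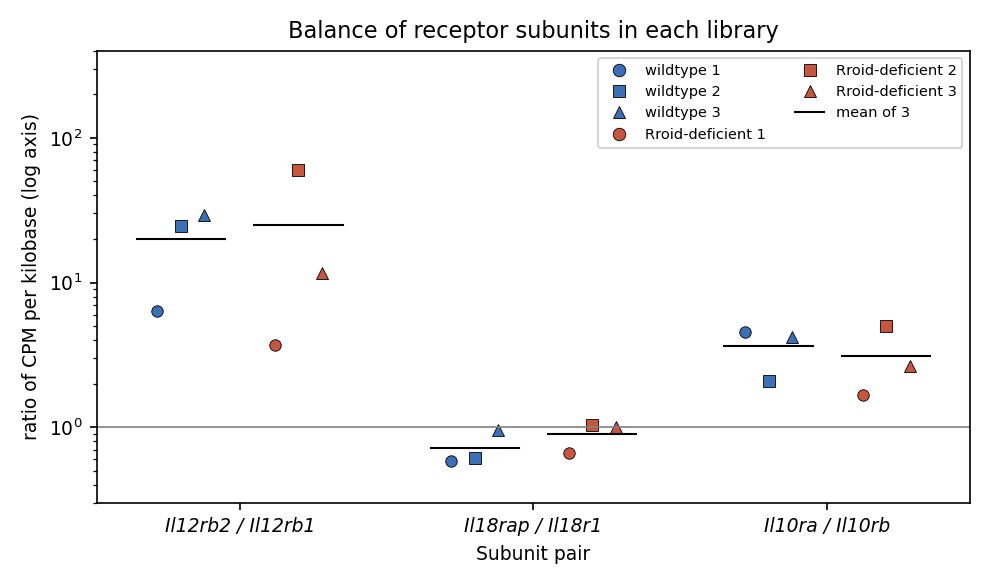
Ratio of CPM per kilobase between the 2 chains of the IL-12, IL-18 and IL-10 receptors, on a log axis, one point per library, with wildtype in blue, Rroid-deficient in red, and a bar at the mean of 3. The IL-12 pair spans 3.68 to 60.0 and the IL-18 pair 0.585 to 1.03, and the genotypes overlap in all 3 pairs.

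Il10ra binds IL-10, and Il10rb is the second chain, shared with the receptors for IL-22 and type III interferons. Il10ra had 259, 110 and 139 CPM in wildtype and 158, 220 and 135 CPM in deficient libraries. Wildtype 1 was the highest and wildtype 2 the lowest of all 6. The fitted log2 difference was 0.01 (95% interval -0.73 to 0.76, edgeR adjusted p = 0.998). Il10rb had 62.0, 57.0 and 35.9 CPM in wildtype and 102, 48.1 and 55.3 CPM in deficient libraries, and its higher deficient mean came from deficient 1. Its log2 fold change was 0.41 (95% interval -0.49 to 1.30), and -0.0023 without deficient 1. On chromosome 16 Il10rb lies between Ifnar2 and Ifnar1, which encode the chains of the type I interferon receptor. Deficient 1 was also the highest library for Ifnar2 (142 CPM) and Ifnar1 (236 CPM).

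Ifngr1, the chain that binds interferon gamma, had 360, 388 and 371 CPM in wildtype and 286, 276 and 370 CPM in deficient libraries. Its wildtype libraries were the tightest of any member, with a coefficient of variation of 3.80% against 16.6% in deficient libraries. Deficient 1 and 2 lay below the wildtype range, while deficient 3 lay within it. The fitted log2 difference was -0.26 (95% interval -0.68 to 0.15, edgeR adjusted p = 0.925). Ifngr2, the second chain of the same receptor, had no count in any library. Il6ra, which binds IL-6, likewise had 0 counts in all 6 libraries, which allows up to 0.322 to 0.489 CPM per library (3 counts, for counting error only). In all, 18209 of the 37991 listed genes had no count, and a 0 here is a count in these files, not proof that the gene is silent. Il6st, the signalling chain of the IL-6 receptor, was detected in every library at 4.57 to 97.9 CPM. Myeloid markers, from cells that also carry Il6ra, were near 0, with a summed level of at most 10.4 CPM over 9 genes and Cd14, Fcgr1, S100a8 and Clec9a at 0 in every library.

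**Figure D3:**
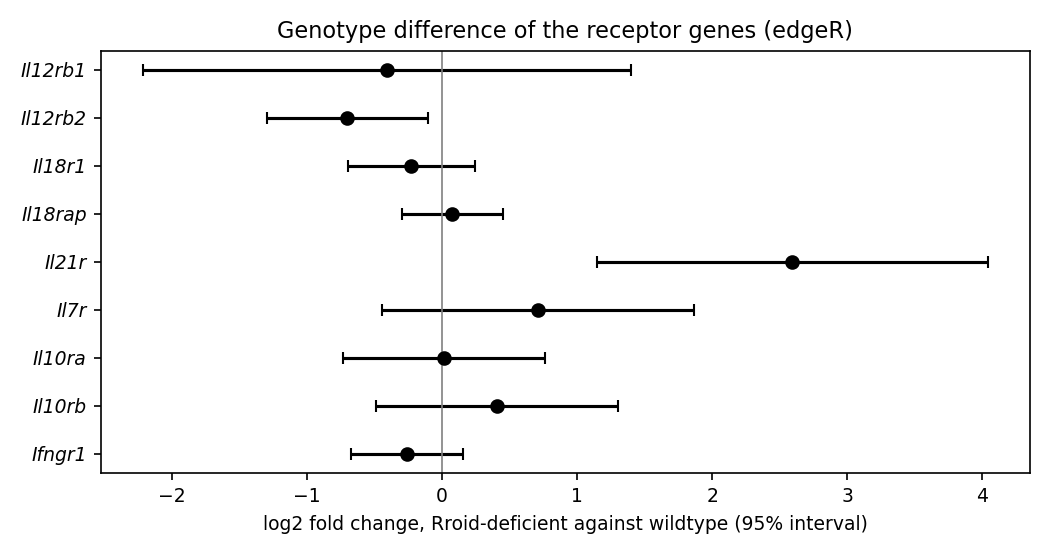
Log2 fold change of 9 receptor genes, Rroid-deficient against wildtype, with bars for the 95% interval from edgeR. The intervals of Il21r (1.15 to 4.04) and Il12rb2 (-1.30 to -0.10) lie to one side of 0, before adjustment for the 11724 genes tested, and the other 7 include 0.

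The rest of the receptor pathway was described with lists of named genes. Among 9 shared and partner subunits, 5 were tested, none passed in edgeR, and the median log2 fold change was -0.10. Il2rg, the common gamma chain that Il21r and Il7r need, had 312 ± 59.2 CPM in wildtype and 292 ± 45.7 CPM in deficient libraries (SD, n = 3; log2 fold change -0.10, 95% interval -0.58 to 0.38). Il27ra had 43.3 ± 7.67 and 30.7 ± 10.8 CPM, and Il6st had 24.3 ± 8.52 and 40.7 ± 50.1. Crlf2, which pairs with Il7r in the receptor for TSLP, had 44.8, 9.66 and 7.71 CPM in wildtype and 7.64, 2.61 and 6.22 CPM in deficient libraries, apart by a narrow margin. Of the 5 tested only this 1 lay apart, against 6.33% of all tested genes in that direction.

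Of 21 other interleukin and interferon receptors, 11 were tested. None passed in edgeR, and 8 had a positive and 3 a negative log2 fold change. DESeq2 on the filtered genes called 1, Il4ra, against 0.569% of all genes with an adjusted p. Il2rb, the IL-2 and IL-15 receptor chain, had the highest CPM of the list, at 2712 ± 484 and 2915 ± 299 CPM (SD, n = 3). Il17ra had 260 ± 53.5 and 319 ± 63.0 CPM. Ifnar1 had 138 ± 11.4 and 144 ± 81.0 CPM, and Ifnar2 77.5 ± 38.1 and 110 ± 27.0. Il2ra, the inducible high-affinity IL-2 receptor chain, is named because its deficient libraries (7.33 to 23.4 CPM) lay above its wildtype libraries (3.22 to 4.72 CPM); it was chosen after its values were seen, and its edgeR adjusted p was 0.914. Il4ra lay apart in the same direction, which makes 2 of the 11, against 6.03% of all tested genes. Sigirr, an inhibitory member of the IL-1 receptor family, lay apart in the other (19.9 and 8.87 CPM on average). It was 1 of the 11, against 6.33% of all tested genes, and was also chosen after its values were seen.

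Downstream of the receptors, none of the 11 JAK and STAT genes passed in edgeR, with 4 positive and 7 negative log2 fold changes. Jak1 had 2113 ± 266 and 1865 ± 188 CPM (SD, n = 3) and Stat4, the main target of IL-12, 523 ± 57.0 and 609 ± 145. Stat3, the main target of IL-21 and IL-10, had 204 ± 15.1 and 213 ± 86.2. In 2 of the 11, Jak2 and Stat6, every deficient library was lower than every wildtype library, against 6.33% of all tested genes. They were chosen after their values were seen. Jak2, a kinase of the IL-12 and interferon gamma receptors, had 134 ± 30.8 and 78.8 ± 11.8 CPM (edgeR adjusted p = 0.906).

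In the MyD88 branch used by IL-18, 17 of 18 genes were tested and none passed in edgeR, with 13 positive and 4 negative log2 fold changes and a median of 0.28. Tab2 had 536 ± 62.2 and 556 ± 192 CPM (SD, n = 3). Nfkb1, an NF-kappaB subunit gene, had 181 ± 23.3 and 222 ± 30.2 CPM. Ikbkb, a kinase that releases NF-kappaB, had 80.8 ± 19.9 and 136 ± 58.1, and Traf6, a ubiquitin ligase, had 98.6 ± 22.4 and 103 ± 25.9. All deficient libraries lay above all wildtype libraries for Nfkb1 and Ikbkb, 2 of the 17 against 6.03% of all tested genes. They lay below for 1 of the 17, Tab3, against 6.33%. Tab3, chosen after its values were seen, had 81.8, 29.9 and 28.6 CPM in wildtype and 11.4, 12.2 and 23.8 CPM in deficient libraries (log2 fold change -1.56, edgeR adjusted p = 0.906).

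Among 18 negative regulators, all tested, none passed in edgeR and the median was 0.23. Tnfaip3 had 141 ± 9.36 and 171 ± 39.5 CPM (SD, n = 3), and Ptpn11 had 98.1 ± 29.4 and 118 ± 52.2. Pias1, an inhibitor of STAT signalling, had 69.5 ± 24.8 and 120 ± 22.9 CPM, and Ptpn6, which encodes the phosphatase SHP-1, had 62.0 ± 17.3 and 113 ± 24.1. In 4 of the 18 every deficient library was above every wildtype library, Pias1 and Ptpn6 among them, against 6.03% of all tested genes. In 2 it was below, against 6.33%: Ptpn2 had 95.4 ± 11.02 and 62.6 ± 18.2 CPM, and Pias3 had 28.5 ± 6.91 and 10.03 ± 2.24 CPM, a log2 fold change of -1.51. These 2 were chosen after their values were seen. Of 13 ligands and soluble binders, 3 were tested and none passed in edgeR. Ifng had 69.2 ± 13.5 and 77.4 ± 27.6 CPM, Il18bp, the soluble IL-18 antagonist, had 29.0 ± 30.1 and 11.9 ± 2.84, and Il27 had 7.22 ± 1.14 and 3.28 ± 2.28. Il12b, Il18, Il21 and Il6 had no count in any library, and among listed ligands of the members only Ifng was tested, with Il7, Il10 and Il12a at most at 3.18 CPM in any library.

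Genes that IL-12 and IL-18 induce in NK cells were described as a further list. Whether these 2 cytokines set their levels in these libraries was not tested. Of 18, 16 were tested and none passed in edgeR or in DESeq2 on the filtered genes, while DESeq2 without a filter called Xcl1 (adjusted p = 0.0416). An unadjusted edgeR p under 0.05 was reached by 5 of the 16, against 5.29% of all tested genes. Ccl5 had 2096 ± 747 and 1839 ± 8.26 CPM (SD, n = 3), Xcl1 had 230 ± 17.3 and 376 ± 0.823, Gzmb, which encodes granzyme B, had 381 ± 37.3 and 209 ± 83.1, and Irf8 had 177 ± 50.6 and 202 ± 64.2. Of the tested 16, 11 had a positive and 5 a negative log2 fold change, with a median of 0.27. The deficient libraries of Xcl1 all lay above and those of Gzmb all below the wildtype libraries, against 6.03% and 6.33% of all tested genes in these directions. Csf2, Il2ra and Cd69, chosen after their values were seen, also had every deficient library above every wildtype library. This makes 4 higher and 1 lower of the 16. Csf2 had 0, 15 and 0 counts in wildtype and 27, 88 and 36 in deficient libraries. It passed the filter on low counts only through the deficient libraries, where it is high. Its place among the 4, and among the 5 with an unadjusted edgeR p under 0.05, is therefore no independent support.

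**Figure D4:**
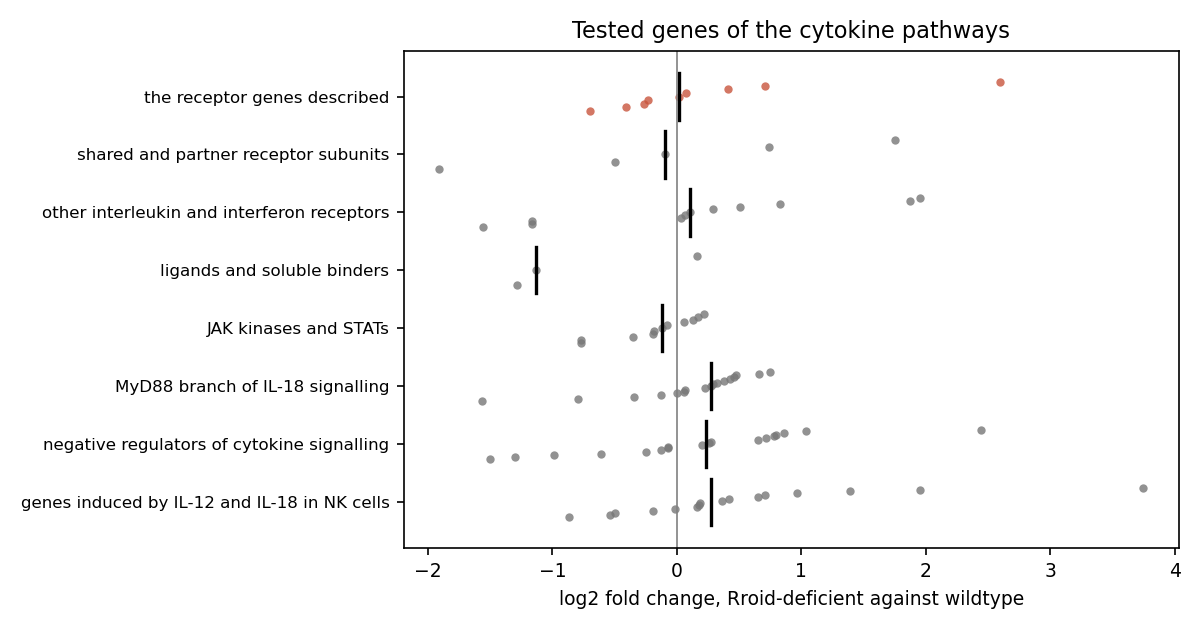
Log2 fold change, Rroid-deficient against wildtype, of every tested gene in the receptor set (red) and 7 pathway lists (grey), with a black bar at each median; each point is a gene and none of the genes shown passed in edgeR. The medians of the lists run from -1.13 (3 ligand genes) to 0.28, and the receptor set has its median at 0.014 with Il21r at 2.60 as its highest point.

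The genes whose levels followed the 3 members of highest mean CPM most closely over the 6 libraries were taken from 6155 tested genes of at least 20 CPM, by Pearson's r of log2 CPM, as a description. For Il18r1 they were Tnfaip8l2 (r = 0.999), Rbbp7 (0.989) and Eml4 (0.970), with 57 genes above 0.9. For Ifngr1 they were Fcgr2b (r = 0.996), Zbtb7b (0.994) and Gm11273 (0.989), with 60 genes above 0.9. For Il18rap they were Brd9 (r = 0.964), Brd1 (0.960) and 1810030O07Rik (0.941), with 11 above 0.9. Il18rap was not among the 3 nearest to Il18r1, its partner and neighbour. Each r rests on 6 libraries from both genotypes, and the named genes were picked as the highest of those compared. These values are therefore not evidence of shared control.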

How the data were processed

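Total RNA (TRIzol, then columns) was amplified with Ovation V2, prepared with a KAPA kit and read from one end, per the labels' protocols. The submitters' processing notes name Trimmomatic 0.33, TopHat2 2.1.0, HTSeq 0.6.1 and DESeq2, with builds NCBIM37 and mm9; their order, settings and use of strand are not stated there. The authors deposited raw counts per Ensembl gene. The 5 closing rows naming no gene (80.0% to 84.4% of listed reads) were left out. Of the listed reads not set aside for multiple alignments, 72.8% to 79.1% fell in no annotated feature. Symbols came from GENCODE M21 for 32919 of 37991 genes. Every pair of libraries differed beyond counting noise (chi-square of at least 19.2 per degree of freedom).

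The test was edgeR 4.0.16 in R 4.3.3 (TMM, filterByExpr, quasi-likelihood fit on genotype, Benjamini-Hochberg over 11724 genes, threshold 0.05), checked on simulated counts. SE were derived from F statistics. CPM use TMM-scaled library sizes. Precision followed depth: the median SE (log2) was 0.25 from 100 CPM upward, 0.48 between 20 and 100 CPM, and 0.89 between 5 and 20 CPM. Named were all members, list genes that passed, the 4 most abundant tested genes per list, and the 3 most alike genes of the 3 most abundant members (log2 of CPM + 0.5). Members, lists and alternatives were chosen with earlier results of these data known. Alternatives were RLE size factors, DESeq2 1.42.0 with and without the filter, voom of limma 3.58.1, no filter, a stricter filter (10 counts in 3 libraries, mean 2 CPM), genes of at least 20 CPM, libraries left out and a replicate block; no normalization factors, and all counts of non-overlapping members, were added after seeing the data. Figures used matplotlib 3.10.9.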

Additional observations from a re-analysis of the deposited data

How the results depend on the processing

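The number of genes that passed over all tested was 2 in edgeR. It was 88 in DESeq2 without a filter, 65 in DESeq2 on the filtered genes and 98 in edgeR without a filter on low counts. It was 1 with limma-voom, 1 among genes of at least 20 CPM, 0 with wildtype 1 and deficient 1 both left out, and 0 in each of the fits with 1 library left out. The cause was not tested. Members that passed numbered 1 (Il21r) in DESeq2 without a filter and 1 on the filtered genes, and 0 in the other settings; among genes of at least 20 CPM Il21r was not tested. With the replicate number as a block 0 genes and 0 members passed. Over genes, the deviations of same-numbered libraries from their group means correlated at 0.014, -0.017 and 0.040. Whether same-numbered libraries shared a preparation was not tested. Members whose libraries did not overlap numbered 1, but 2 without normalization factors (Il12rb2 in addition), 3 without wildtype 1 and deficient 1, and 2 to 3 with any 1 library left out, where fewer libraries have to lie apart; Il21r was among them each time. Of 143 refits of single members, 132 kept direction and side of the threshold, 2 passed (Il21r in DESeq2) and 9 changed sign, none of them past the threshold. The sign changed for Il10ra among genes of at least 20 CPM (-0.010), and with single libraries left out for Il10ra (-0.22 to 0.45), Il12rb1 (-1.41 to 0.64), Il18rap (-0.024 to 0.19) and Il10rb (-0.0023 to 0.60). Il21r rests on 24 to 47 counts in the wildtype libraries, and Il6ra, at 0 counts, cannot be compared.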
